A study of Homo sapiens with 12 samples.

Results

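The nuclear genes of respiratory complexes II to V were examined in H1299, a human lung cancer cell line, after 24 h at 60% oxygen. Members were chosen by symbol: the complex II subunits SDHA to SDHD and the SDHAF assembly factors, the UQCR genes and CYC1 of complex III, cytochrome c (CYCS), the COX genes of complex IV and the ATP5 genes of complex V, with pseudogenes left out. This gave 64 of the 59577 genes in the table: 8 for complex II, 10 for complex III, 1 for cytochrome c, 26 for complex IV and 19 for complex V. The hyperoxia group was 6 samples kept at 60% O2, 5% CO2 and 35% N2, and the normoxia group was 6 samples kept at 21% O2, 5% CO2 and 74% N2. All 12 samples came from this single line, and nothing in the labels says whether samples of a group were separate cultures, so a p-value here reflects variation among these 12 samples that may be technical.

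Complex II (succinate dehydrogenase) passes electrons from succinate to ubiquinone. Complex III passes them on to cytochrome c and complex IV (cytochrome c oxidase) passes them from there to oxygen. Complexes III and IV pump protons, and complex V (ATP synthase) uses the proton gradient to make ATP. Complex II is encoded wholly in the nucleus, whereas complexes III, IV and V combine nuclear subunits with a few encoded by mitochondrial DNA, so the members described here are only part of those complexes. Transcript levels say nothing directly about the amount or activity of a complex.

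The measure was mRNA level in TPM (a transcript level scaled for gene length and for the total of the sample). The sums of the deposited TPM columns lay between 996138 and 998797, and each sample had 14275 to 14635 genes at 1 TPM or more. The read depth is unknown, because TPM values do not retain it. On the first principal component, with 20.7% of the variance, all hyperoxia samples had positive and all normoxia samples negative scores. Normoxia replicates 1 to 3 scored -9.44 to -5.12 there, nearer to hyperoxia than replicates 4 to 6, which scored -33.3 to -18.7. On the second, with 11.7%, normoxia replicates 1 to 3 had negative scores and replicates 4 to 6 positive ones, which no label accounts for, so main counts are also given with normoxia replicates 1 to 3 alone. The keratins KRT8 and KRT18 of epithelial cells were high, with medians of 598 TPM in hyperoxia and 609 TPM in normoxia for KRT8, whereas the lung lineage markers NKX2-1, SFTPB, SFTPC and NAPSA and the epithelial markers EPCAM and CDH1 had group means under 1 TPM. Vimentin (VIM), a mesenchymal marker, was at 2920.3 TPM in hyperoxia and 3394 TPM in normoxia (adjusted p = 0.051, limma). A list of 9 markers of blood, endothelial and stromal cells summed to 45.9, 51.3 and 58.3 TPM in hyperoxia, against 48.0, 52.2 and 60.3 TPM in normoxia, most of it CD68 (means of 44.5 TPM in both groups) and ACTA2 (means of 5.69 TPM in hyperoxia and 6.10 TPM in normoxia), and PTPRC, CDH5 and COL3A1 had medians of 0. Genes that respond to oxidants differed between the groups: HMOX1, heme oxygenase 1, had 78.7, 96.9 and 115 TPM in hyperoxia, against 18.7, 21.7 and 23.1 TPM in normoxia, a log2 fold change of 2.09.

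Few of the 57 members with a mean of at least 1 TPM differed at 60% oxygen, and the differences were small. SDHA and SDHAF1 of complex II, COX5A, COX7B and COX6C of complex IV, and ATP5IF1 and ATP5MG of complex V rose, by 0.11 to 0.20 on the log2 scale. COX7B2 of complex IV and ATP5F1D of complex V fell, by 0.47 and 0.21 on the log2 scale. No gene of complex III passed the test, nor did CYCS. A gene was called at an adjusted p under 0.05 in limma's moderated test on log2(TPM + 1), adjusted over 14520 genes, and fold changes are hyperoxia over normoxia on that scale. In RNA from whole cultures, fewer cells with a transcript and less of it per cell cannot be told apart.

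The 9 called members were 15.8% of those tested, against 17.3% of all genes tested. In the upward direction 7 members were called, where 11.7% of all genes were, and in the downward direction 2, where 5.63% of all genes were, so the members' share was close to the background. The median log2 fold change was 0.0616 over the members and 0.0265 over all genes tested, and 43 of 57 members (75.4%) had a positive estimate, against 57.1% of all genes. The groups did not overlap for 3 members (5.26%), SDHA, COX5A and COX7B2, against 8.78% of all genes tested. This balance depended on scaling. After median-of-ratios scaling of the TPM values, 3 members were called higher (ATP5IF1, COX5A and SDHA; all genes 8.81%) and 3 lower (COX7B2, ATP5F1D and COX20; all genes 8.79%), with 17.6% of all genes called in either direction. Over all genes 1279 were then higher and 1277 lower, against 1698 and 818 on TPM as deposited, and 61.4% of members had a positive estimate, against 49.7% of all genes. With normoxia replicates 1 to 3 alone, ATP5IF1, COX5A and SDHA rose and COX7B2 fell. The 4 calls on COX7B2, ATP5IF1, COX5A and SDHA held in all 25 alternative settings run, ATP5F1D in 24 of 25, and the other 4 in 9 to 12 of 25.

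The 48 members that did not pass were mostly bounded closely. For 45 of them the 95% interval of the log2 fold change lay inside a rise of 25% and the fall of equal fold. The exceptions were the assembly factors SDHAF4, COX10 and COX18, whose levels were low. COX19 was low too, at a mean of 7.9 TPM over all samples, but its interval lay inside those bounds. None of the 48 had groups without overlap, and 36 of the 48 had a positive estimate.

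**Figure D1:**
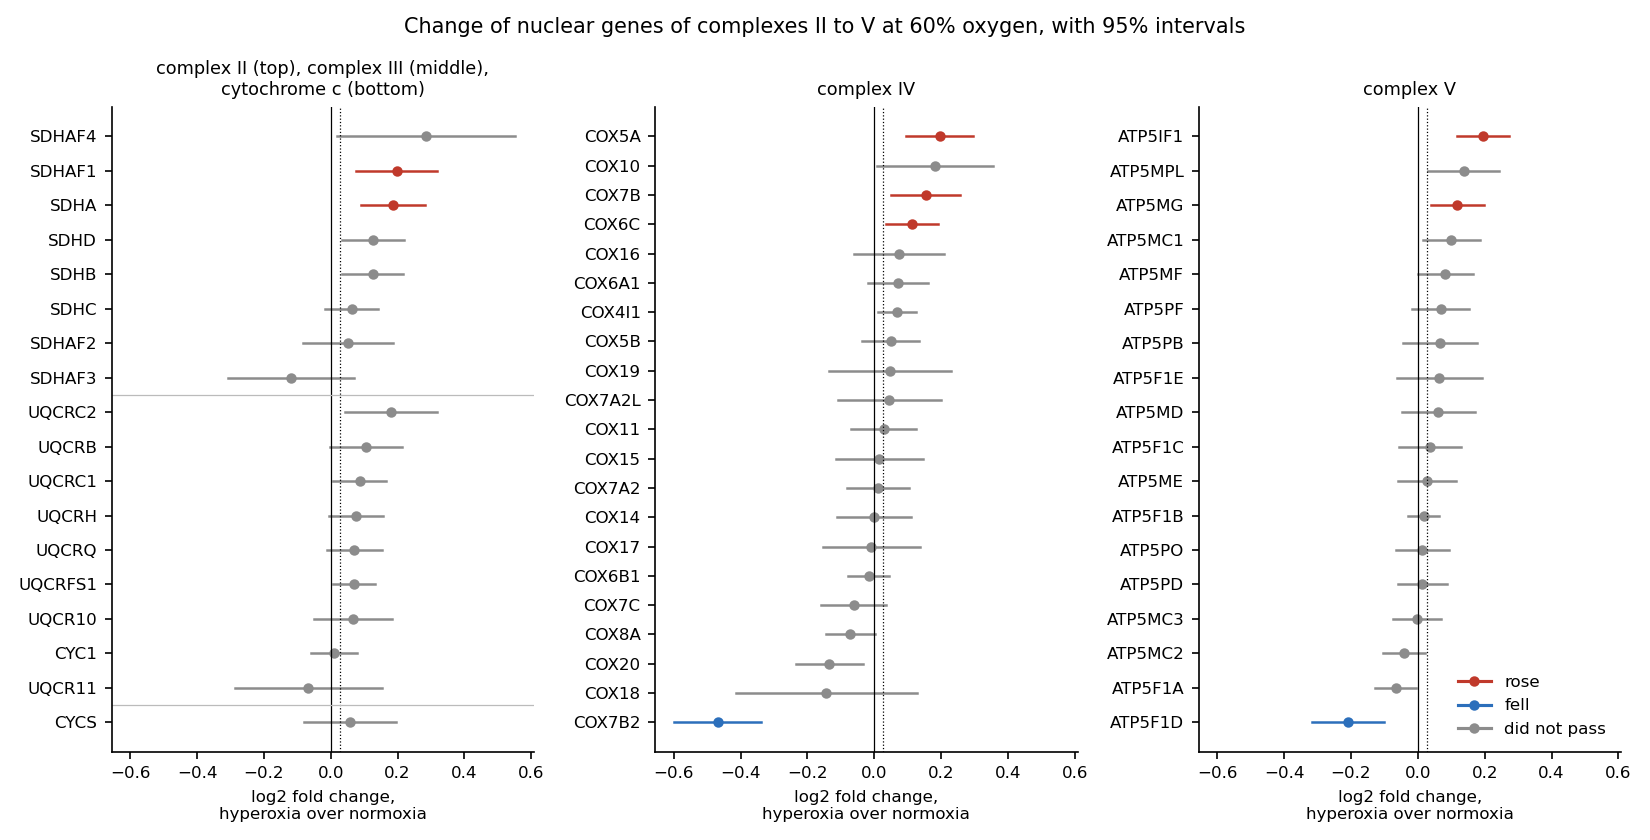
Log2 fold change (hyperoxia over normoxia, on log2(TPM + 1)) of each of the 57 tested members, with its 95% interval from limma; the solid line marks 0 and the dotted line the median of all genes tested, 0.0265. COX7B2 at -0.47 stands farthest from 0, and most other points lie slightly to the right of 0.

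The promoters of the 3 members with the smallest p are shown because nuclear respiratory genes are known for sharing binding motifs of a few factors, among them NRF1, the ETS family factor GABPA and YY1. RefSeq gave a promoter (GRCh38.p14) for 51 of the 64 members, from 250 bases before to 50 after the gene start. The motifs searched on both strands were GCGCANGCG for NRF1, CCGGAAG for ETS factors and AANATGGCG for YY1. Below are the 250 bases upstream of each start, 5′ to 3′, with NRF1 matches in capitals.
SDHA, chr5:218070-218319 (plus strand): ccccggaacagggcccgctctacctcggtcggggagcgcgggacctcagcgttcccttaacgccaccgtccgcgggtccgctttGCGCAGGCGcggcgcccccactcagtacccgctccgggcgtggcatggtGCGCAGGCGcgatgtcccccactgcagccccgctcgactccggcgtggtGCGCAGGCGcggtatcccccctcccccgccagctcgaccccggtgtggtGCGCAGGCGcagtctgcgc
ATP5IF1, chr1:28235874-28236123 (plus strand): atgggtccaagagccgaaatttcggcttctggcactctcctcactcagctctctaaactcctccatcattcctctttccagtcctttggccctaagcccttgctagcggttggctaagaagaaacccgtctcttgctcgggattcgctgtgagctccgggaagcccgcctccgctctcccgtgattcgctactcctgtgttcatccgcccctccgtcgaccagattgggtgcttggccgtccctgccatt
COX7B2, chr4:46909246-46909495 (minus strand): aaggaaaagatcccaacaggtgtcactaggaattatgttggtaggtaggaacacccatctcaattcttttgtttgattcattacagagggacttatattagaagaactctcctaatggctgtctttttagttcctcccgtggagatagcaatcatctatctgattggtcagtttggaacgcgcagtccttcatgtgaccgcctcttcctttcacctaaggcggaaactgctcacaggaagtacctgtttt

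The SDHA promoter held 4 NRF1 matches in identical letters, starting at positions -166, -117, -68 and -19 from the gene start without overlap, and the stretch was 75.2% G and C. The starts were evenly spaced and the bases between them similar, so the 4 matches are not taken as independent. ATP5IF1 and COX7B2 held no match to any of the 3 motifs in the 300-base window, with 57.6% and 43.2% G and C in the bases shown; the median over all promoters was 58.0%. Over the members, 18 of 51 promoters (35.3%) held the NRF1 motif, against 7.52% of all 35116 promoters in the table. The ETS motif was in 20 of 51 (39.2%), against 10.3%, and the YY1 motif in 8 of 51 (15.7%), against 3.19%. Any of the 3 was in 31 of 51 (60.8%), against 18.4%. Of the 7 called members with a promoter in the table, 2 held any of these motifs, SDHA and ATP5MG. The promoters of the whole table were not matched to the members for transcript level or for G and C content. The matches describe these letters only, and binding was not measured.

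In complex II, 2 of 8 members rose and none fell, with a median log2 fold change of 0.126. Of all genes tested, 17.3% were called in either direction and 11.7% were called higher. Whether the 2 of 8 differed from that background was not tested. SDHA, the flavoprotein that oxidises succinate, had 66.9, 70.1 and 75.8 TPM in hyperoxia, against 55.3, 63.0 and 64.1 TPM in normoxia (lowest, median and highest of 6, as in the sentences that follow). Every hyperoxia sample was above every normoxia sample. The log2 fold change was 0.19 ± 0.044 (SE), adjusted p = 0.0116. SDHA has 3 copies in the table that the rule did not take, SDHAP1, SDHAP2 and SDHAP3, with which the counting could split reads; SDHAP1 had medians of 23.1 TPM in hyperoxia and 22.4 TPM in normoxia, a log2 fold change of 0.07 (adjusted p = 0.66), and none of the 3 passed. SDHAF1, an assembly factor of the iron-sulfur subunit, had 31.5, 37.0 and 38.8 TPM in hyperoxia, against 28.2, 31.9 and 33.7 TPM in normoxia. Here the groups overlapped through hyperoxia replicate 3, which was the lowest hyperoxia sample. SDHAF1 had a log2 fold change of 0.20 ± 0.056 (SE) and an adjusted p of 0.0284, a call that 12 of 25 alternatives kept.

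The other 3 catalytic and anchor subunits had positive estimates that did not pass. SDHB, the iron-sulfur subunit, had 202, 218 and 232 TPM in hyperoxia, against 184, 200.01 and 211 TPM in normoxia. The groups overlapped, and the log2 fold change of 0.13 ± 0.043 (SE) missed the threshold (adjusted p = 0.0585), though SDHB was called higher in 5 of 25 alternatives. SDHD, which with SDHC anchors the complex in the membrane, had a log2 fold change of 0.13 (adjusted p = 0.0601; called in 2 of 25 alternatives), and SDHC one of 0.06 (adjusted p = 0.274). Of the assembly factors, SDHAF4, which binds flavinated SDHA, had the largest estimate of the complex but low levels, 7.92, 9.69 and 13.1 TPM in hyperoxia, against 6.98, 7.71 and 9.67 TPM in normoxia. Its log2 fold change of 0.28 had a 95% interval of 0.02 to 0.55 (adjusted p = 0.136). SDHAF2, needed for the flavin of SDHA, had a log2 fold change of 0.05 (adjusted p = 0.618). SDHAF3, like SDHAF1 a factor of the iron-sulfur subunit, had one of -0.12 (adjusted p = 0.39), the only negative estimate of the complex. The summed level of the 8 genes was 667, 698 and 722 TPM in hyperoxia, against 618, 646 and 695 TPM in normoxia, and the groups overlapped.

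In complex III, none of the 9 tested members passed, although 8 had a positive estimate and the median log2 fold change was 0.0707. At an unadjusted p under 0.05 limma gave 3 of 9 higher and 0 lower, where it gave 30.7% of all genes tested in either direction (19.7% higher and 10.9% lower), and the exact rank-sum test with adjustment called 0. UQCRC2, core protein 2, had the largest, with 115, 119 and 126 TPM in hyperoxia, against 87.4, 107 and 123 TPM in normoxia. Normoxia ranged more widely than hyperoxia and overlapped it, and the log2 fold change of 0.18 ± 0.064 (SE) had an adjusted p of 0.0683. UQCRC1, core protein 1, had 200.2, 218 and 225 TPM in hyperoxia, against 195, 203 and 215 TPM in normoxia (log2 fold change 0.09, adjusted p = 0.129). UQCRFS1, the Rieske iron-sulfur protein, had 132, 138 and 143 TPM in hyperoxia, against 125, 131 and 135 TPM in normoxia. Its groups overlapped narrowly, with a log2 fold change of 0.07 (adjusted p = 0.124). CYC1, cytochrome c1, was nearly level: 214, 225 and 239.8 TPM in hyperoxia, against 214, 224 and 233 TPM in normoxia. Its 95% interval ran from -0.06 to 0.08 on the log2 scale. The remaining accessory subunits were UQCRH, the hinge protein, UQCRB, which binds ubiquinone, and the small subunits UQCRQ and UQCR10. UQCRH had the highest level of the complex, 936, 988 and 1062 TPM in hyperoxia, against 899.9, 926 and 996 TPM in normoxia. Their log2 fold changes were 0.08, 0.11, 0.07 and 0.07 in that order, each with overlapping groups. UQCR11, a small subunit, had the only negative estimate, -0.07 (adjusted p = 0.707), and UQCRHL, a copy of UQCRH, was not tested at a group mean of at most 0.203 TPM.

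UQCRFS1P1, a pseudogene of UQCRFS1 that the rule left out, rose: 36.3, 38.7 and 40.9 TPM in hyperoxia, against 27.4, 32.5 and 36.3 TPM in normoxia, a log2 fold change of 0.26 ± 0.065 (SE), adjusted p = 0.0147. The highest normoxia sample equalled the lowest hyperoxia sample. The counting could split reads between the copy and its parent, so both values are uncertain. Of the 100 pseudogene rows left out, 3 were tested and the other 2, ATP5MC1P4 and COX5BP6, did not pass.

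CYCS, cytochrome c, carries electrons from complex III to complex IV and activates caspases when released into the cytosol. It had 106, 126 and 139 TPM in hyperoxia, against 112, 118 and 137 TPM in normoxia. The groups overlapped, and the log2 fold change of 0.06 had a 95% interval of -0.08 to 0.20 (adjusted p = 0.581). None of its 41 CYCSP copies in the table reached the minimum mean.

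In complex IV, 3 of 21 tested members rose and 1 fell, with a median log2 fold change of 0.0286. That was 19.0% called, against 17.3% of all genes tested. COX7B2, an isoform of subunit 7B known for expression in testis, had 41.8, 47.2 and 52.9 TPM in hyperoxia, against 61.5, 63.7 and 75.5 TPM in normoxia. All hyperoxia samples were below all normoxia samples. It fell by 28.2% between the group means, with a log2 fold change of -0.47 ± 0.06 (SE) and an adjusted p of 0.000232, the smallest among the tested members. COX7B, the common gene for that subunit, rose: it had 173, 178 and 204 TPM in hyperoxia, against 151, 166 and 173 TPM in normoxia. Its groups overlapped by a narrow margin, and the log2 fold change was 0.15 ± 0.048 (SE), adjusted p = 0.0424, a call kept in 11 of 25 alternatives. Thus the share of COX7B2 in the TPM of the pair was 18.4, 20.8 and 22.6% in hyperoxia, against 26.5, 28.7 and 31.3% in normoxia, without overlap. This share restates the calls on both genes, which went in opposite directions, and is no separate evidence. The deposited lengths were 2444 bases for COX7B and 556 bases for COX7B2. Their basis is not given, so the share holds only on that scale.

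COX5A, a nuclear subunit of the matrix side, had 325, 327 and 361 TPM in hyperoxia, against 260.3, 298 and 319.9 TPM in normoxia. Every hyperoxia sample was above every normoxia sample. The log2 fold change was 0.20 ± 0.046 (SE) and the adjusted p 0.0118. COX6C, another nuclear subunit, had 449, 462 and 486 TPM in hyperoxia, against 395, 434 and 453 TPM in normoxia, with overlapping groups and a log2 fold change of 0.11 ± 0.036 (SE) (adjusted p = 0.0488), close to the threshold and kept in 9 of 25 alternatives. COX4I1, the common isoform of subunit 4, had 831, 874 and 919 TPM in hyperoxia, against 812, 832 and 853 TPM in normoxia (log2 fold change 0.07, adjusted p = 0.0935). Its counterpart COX4I2, the isoform known from lung, was listed at 0 in all 12 samples, as was COX6A2, the isoform of heart and skeletal muscle. COX6B2, COX7A1 and COX8C, further tissue isoforms, had group means of at most 0.52 TPM, so COX7B2 was the only isoform of that kind with a level high enough to test. COX6A1, the common isoform of subunit 6A, had 736, 835 and 869.9 TPM in hyperoxia, against 748, 774 and 828 TPM in normoxia (log2 fold change 0.07, adjusted p = 0.281).

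The other 5 common subunits had log2 fold changes between -0.07 (COX8A) and 0.05 (COX5B), with COX7C at -0.06, COX6B1 at -0.02 and COX7A2 at 0.01. COX6B1 had the highest level of the complex, 1377, 1522 and 1544 TPM in hyperoxia, against 1476, 1520.5 and 1550.4 TPM in normoxia. All 5 overlapped between the groups.

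None of the 9 COX assembly factors passed, with a median log2 fold change of 0.0151. At an unadjusted p under 0.05 limma gave 1 of 9 higher and 1 lower, against 19.7% and 10.9% of all genes tested, and the exact rank-sum test with adjustment called 0. COX17, the copper chaperone of the intermembrane space, had 39.1, 44.0 and 50.6 TPM in hyperoxia, against 38.9, 45.5 and 49.9 TPM in normoxia. The groups lay over each other (log2 fold change -0.01, 95% interval -0.15 to 0.14). COX20, a chaperone of the COX2 subunit, had a log2 fold change of -0.13 (adjusted p = 0.0666) and was called lower under median-of-ratios, TMM and quantile scaling. COX10, which takes part in heme A synthesis, had a log2 fold change of 0.18 (adjusted p = 0.141), and COX18, which inserts COX2 into the membrane, one of -0.14 with an interval of -0.41 to 0.13. The copper factors COX11 and COX19 had log2 fold changes of 0.03 and 0.05, the heme A factor COX15 one of 0.02, and COX14 and COX16, which act on COX1 and COX2, ones of -0.0019 and 0.07. COX7A2L, a factor that joins complexes III and IV in supercomplexes, had 58.9, 65.9 and 79.4 TPM in hyperoxia, against 59.6, 63.5 and 72.1 TPM in normoxia (log2 fold change 0.04, adjusted p = 0.722). The summed level of complex IV was 6339, 6655 and 6807 TPM in hyperoxia, against 6344, 6513 and 6750.0 TPM in normoxia, with overlap.

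**Figure D2:**
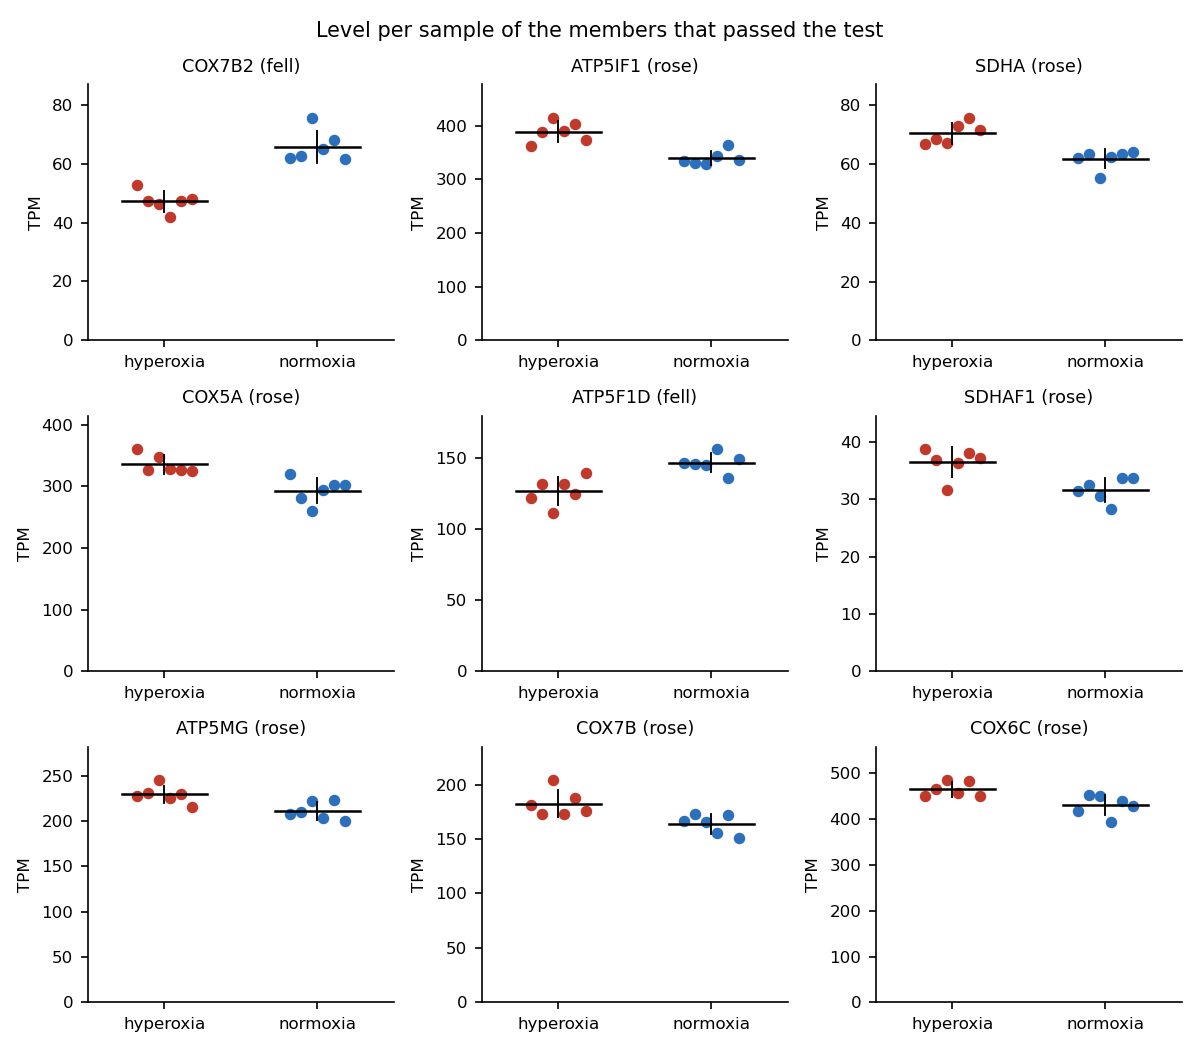
TPM of the 9 members that passed the test, 1 panel per gene with the smallest p first; points are the 6 hyperoxia samples (left) and the 6 normoxia samples (right), horizontal lines the means and vertical lines the SD, and the axes start at 0. Groups without overlap are seen for COX7B2 (hyperoxia lower), SDHA and COX5A (hyperoxia higher).

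In complex V, 2 of 18 tested members rose and 1 fell, with a median log2 fold change of 0.0491. That was 16.7% called, against 17.3% of all genes tested. ATP5IF1, the inhibitor that stops the F1 part from hydrolysing ATP, had 363, 389.6 and 415 TPM in hyperoxia, against 329, 335 and 363 TPM in normoxia. Only the lowest hyperoxia and the highest normoxia sample crossed. The log2 fold change was 0.20 ± 0.036 (SE), adjusted p = 0.00293. ATP5F1B, the catalytic beta subunit on which the inhibitor acts, had 896, 902 and 938 TPM in hyperoxia, against 875, 901 and 926 TPM in normoxia, with a log2 fold change of 0.02 and an interval of -0.03 to 0.06. The ratio of ATP5IF1 to ATP5F1B in TPM was 0.404, 0.425 and 0.462 in hyperoxia, against 0.363, 0.375 and 0.409 in normoxia. Those ranges crossed only at their ends. As ATP5F1B was nearly level, the ratio restates the call on ATP5IF1 and is no separate evidence.

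ATP5F1D, the delta subunit of the central stalk, had 112, 128 and 139 TPM in hyperoxia, against 136, 146 and 156 TPM in normoxia. The groups overlapped slightly, and it fell with a log2 fold change of -0.21 ± 0.05 (SE), adjusted p = 0.0118; with normoxia replicates 1 to 3 alone the adjusted p was 0.0629. ATP5F1A, the alpha subunit that alternates with beta in the F1 head, had 413, 424 and 452 TPM in hyperoxia, against 431, 450.4 and 467 TPM in normoxia (log2 fold change -0.07, adjusted p = 0.136). Of the 5 F1 genes ATP5F1D was the only one that passed. ATP5MG, subunit g of the membrane part, had 216, 229 and 245 TPM in hyperoxia, against 200.5, 209 and 223 TPM in normoxia. Its groups overlapped, with a log2 fold change of 0.12 ± 0.037 (SE) and an adjusted p of 0.041, kept in 9 of 25 alternatives. The other 4 membrane subunits did not pass but had positive estimates, as did all 4 stalk subunits, with medians of 0.0822 over the 5 membrane genes and 0.0399 over the stalk genes. ATP5MPL, a small membrane subunit, came nearest with a log2 fold change of 0.14 (adjusted p = 0.0738; called in 3 of 25 alternatives). ATP5MF, ATP5ME and ATP5MD, the subunits f, e and DAPIT, had log2 fold changes of 0.08, 0.03 and 0.06. In the peripheral stalk ATP5PF, ATP5PB, ATP5PO and ATP5PD had log2 fold changes of 0.07, 0.07, 0.01 and 0.01, and the F1 subunits gamma (ATP5F1C) and epsilon (ATP5F1E) ones of 0.04 and 0.06. ATP5MGL, a copy of ATP5MG, was not tested at a group mean of at most 0.03 TPM. The summed level of complex V was 8883, 9100.0 and 9487 TPM in hyperoxia, against 8547, 8839 and 9247 TPM in normoxia, with overlap.

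The rotating ring of complex V is built from subunit c, and 3 genes, ATP5MC1, ATP5MC2 and ATP5MC3, encode the same mature protein behind different targeting sequences. ATP5MC1 had 383, 394 and 444 TPM in hyperoxia, against 352, 373 and 397 TPM in normoxia. It had a log2 fold change of 0.10 (adjusted p = 0.101). ATP5MC2, the gene with the highest level of the 3, had 508, 530.4 and 561 TPM in hyperoxia, against 535, 550.3 and 564 TPM in normoxia (log2 fold change -0.04, adjusted p = 0.365). ATP5MC3 had 265, 288 and 297 TPM in hyperoxia, against 274, 287 and 297 TPM in normoxia (log2 fold change -0.0027). None of the 3 passed. At an unadjusted p under 0.05 limma gave 1 of 3 higher and 0 lower, against 19.7% and 10.9% of all genes tested, and the exact rank-sum test with adjustment called 0. ATP5MC1 made up 31.7, 32.7 and 34.7% of their sum in hyperoxia, against 29.2, 30.9 and 32.3% in normoxia, and ATP5MC2 42.3, 43.2 and 46.4%, against 43.5, 45.7 and 46.8%. Both pairs of ranges overlapped, and the sum of the 3 genes had medians of 1213 TPM in hyperoxia and 1209 TPM in normoxia.

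**Figure D3:**
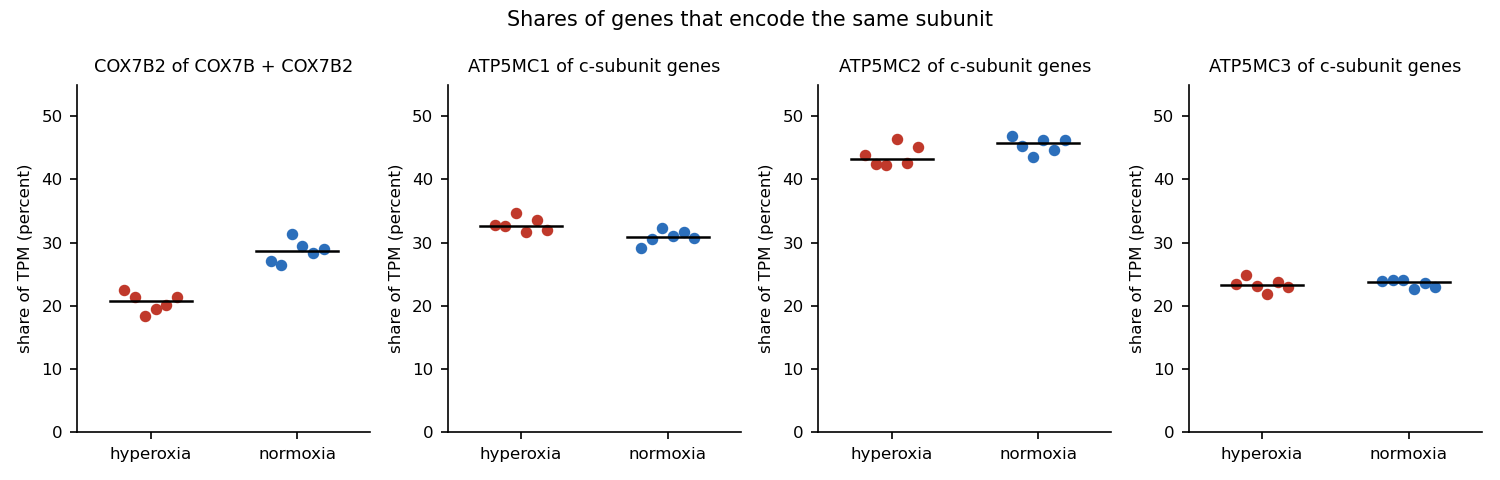
Share of TPM, in percent, taken by COX7B2 within the pair COX7B and COX7B2, and by each of ATP5MC1, ATP5MC2 and ATP5MC3 within the 3 c-subunit genes; points are samples, hyperoxia left and normoxia right, and lines are medians. The COX7B2 share is separated between the groups (medians 20.8% in hyperoxia and 28.7% in normoxia), while the c-subunit shares overlap. That separation restates the calls on COX7B and COX7B2, which went in opposite directions.

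Members of 1 complex differed widely in level. By mean over the 12 samples the highest were ATP5MF (subunit f) at 1860.0 TPM, COX6B1 at 1509 TPM and ATP5ME (subunit e) at 1322 TPM, and the lowest tested was COX18 at 4.84 TPM. Within complex II, SDHB averaged 208 TPM and SDHA 66.2 TPM, although the proteins stand in equal number. Among the members, the assembly factors of complexes II and IV lay at or below 77.1 TPM, the level of COX14. TPM is scaled by a length whose basis is not given in the sources used here, and some lengths are long for the coding part, such as 3610 bases for ATP5F1E, so these levels hold only on that scale. Neighbours in this order, such as COX5B and COX5A (329 and 315 TPM), had ranges over samples that overlapped in both groups.

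**Figure D4:**
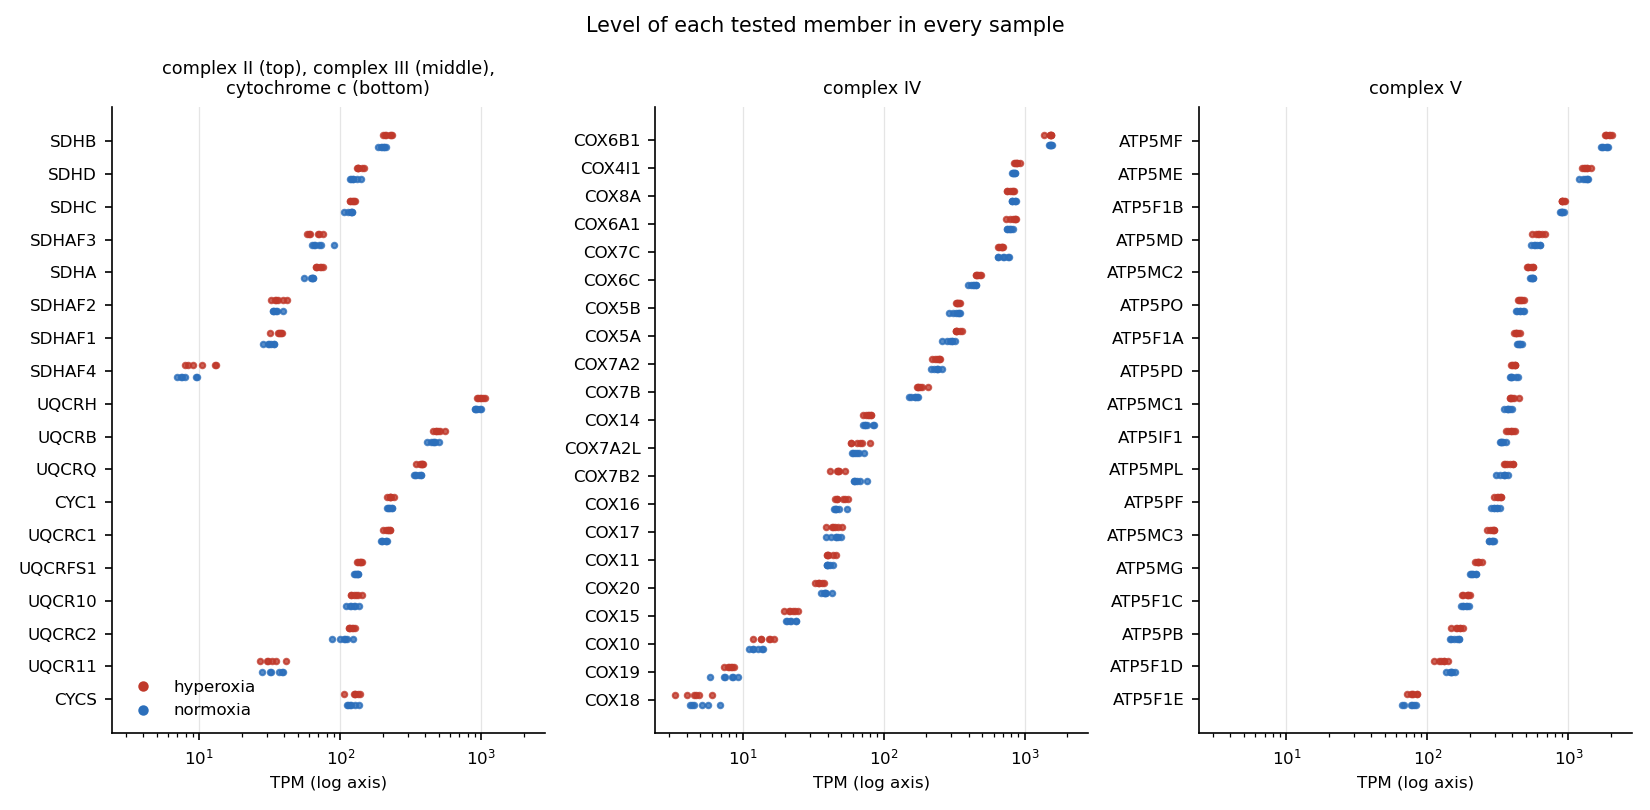
TPM of each tested member in each sample on a log axis, ordered by mean level within a complex; for each gene the upper row is hyperoxia and the lower row normoxia. Within a gene the groups mostly lie over each other, while genes span widely, in complex IV from COX18 at 4.84 TPM to COX6B1 at 1509 TPM.

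Of the 6 partners encoded by mitochondrial DNA, none rose and 4 fell, with a median log2 fold change of -0.252. That was 66.7% called, against 17.3% of all genes tested. MT-CYB, the cytochrome b of complex III, had 1755, 1828 and 1917 TPM in hyperoxia, against 2498, 2579.6 and 2989.7 TPM in normoxia (log2 fold change -0.53, adjusted p = 6.26e-06). MT-CO3 of complex IV had 4338, 4603 and 4649 TPM in hyperoxia, against 5618, 5880.2 and 6357 TPM in normoxia (log2 fold change -0.37), while MT-CO1 and MT-CO2, which hold the metal centres, had log2 fold changes of -0.01 and 0.00 and did not pass. In complex V, MT-ATP6 had 2879, 3178 and 3301 TPM in hyperoxia, against 3889.6, 4098 and 4636 TPM in normoxia (log2 fold change -0.41). MT-ATP8, which overlaps MT-ATP6 so that reads could be split between them, had a log2 fold change of -0.13 (adjusted p = 0.0392) with overlapping groups. Its call held in 11 of 25 alternatives, and those on MT-CYB, MT-CO3 and MT-ATP6 in all 25. The difference between these partners and the nuclear members was not tested.

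A list of 35 further genes held mostly assembly factors of complexes III to V, with HCCS for cytochrome c and the complex IV subunit NDUFA4 among them. Of the 35, 7 rose and none fell (median 0.0378). That was 20.0% called, against 17.3% of all genes tested (11.7% higher). TMEM70, which helps build complex V, had 52.8, 57.0 and 60.7 TPM in hyperoxia, against 44.8, 48.2 and 51.9 TPM in normoxia. The groups did not overlap, and the log2 fold change was 0.23 ± 0.048 (SE), adjusted p = 0.00508. SCO1, a copper chaperone of complex IV, had a log2 fold change of 0.26 (adjusted p = 0.00563), HCCS, which attaches heme to cytochrome c, one of 0.24 (adjusted p = 0.0248), and TMEM242, a factor of complex V assembly, one of 0.21 (adjusted p = 0.0221). LRPPRC, which stabilises mitochondrial mRNAs, rose by 0.13 on the log2 scale (adjusted p = 0.0227), TACO1, an activator of COX1 translation, by 0.14 and TTC19 of complex III by 0.18. The calls on TACO1 and TTC19 held in 9 and 10 of 25 alternatives, and the other 5 in 18 to 25. Of 9 tested ATP and phosphate exchange genes, 3 rose (33.3% called). SLC25A3, the phosphate carrier, had 1073, 1121 and 1172 TPM in hyperoxia, against 998, 1021 and 1048 TPM in normoxia (log2 fold change 0.14, adjusted p = 0.00272). The outer membrane channels VDAC2 and VDAC1 rose too, with log2 fold changes of 0.17 and 0.10 (adjusted p = 0.00577 and 0.0254). Of 37 nuclear complex I subunits, 8 rose and none fell (21.6% called). The median of these subunits was 0.0655, next to 0.0616 for the members of complexes II to V.

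A list of 17 genes held mostly transcription regulators of respiratory genes, with LONP1 and POLRMT among them. TFAM, the packaging and transcription factor of mitochondrial DNA, rose. It had 55.2, 63.9 and 67.8 TPM in hyperoxia, against 53.6, 54.2 and 58.4 TPM in normoxia. Its log2 fold change was 0.17 (adjusted p = 0.0471), a call that held in 8 of 25 alternatives. NRF1, the nuclear respiratory factor whose motif was searched above, fell. It had 10.8, 12.3 and 13.2 TPM in hyperoxia, against 13.5, 14.6 and 19.4 TPM in normoxia, without overlap, and a log2 fold change of -0.29 ± 0.078 (SE) (adjusted p = 0.0208). GABPA and YY1 did not pass (log2 fold changes -0.07 and 0.08). HIF1A and MYC were called lower too, but they are among 78 genes whose deposited sample values, group means and fold changes disagree, so their values are not used. Without them 1 of 15 listed genes rose and 1 fell. That was 13.3% called, against 17.3% of all genes tested.

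**Figure D5:**
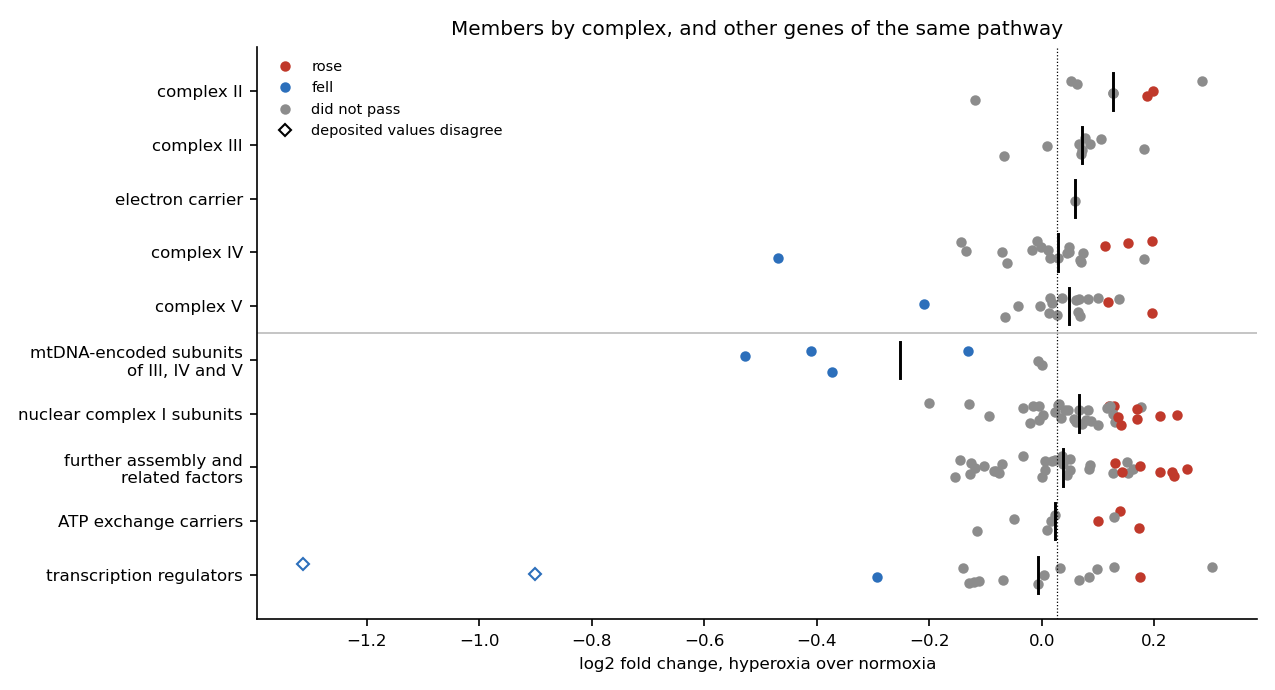
Log2 fold change (hyperoxia over normoxia) of tested members by complex (above the grey line) and of other genes of the pathway (below it); points are genes, short black lines medians, the dotted line the median of all genes tested, and open diamonds genes whose deposited values disagree. The mtDNA-encoded subunits have the lowest median, -0.252, and the nuclear complex I subunits a median of 0.0655.

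In the authors' deposited table no member was marked as changed under their criteria. The authors' deposited table gave 8 members an adjusted p under 0.05, 5 with a fold above 1 and 3 below, and 5 of these 8 (ATP5F1D, COX5A, COX7B2, SDHA and SDHAF1) were also called here. The other 3 there were COX20, UQCRC1 and UQCRC2. Called here but not there were ATP5IF1, COX7B, COX6C and ATP5MG, with the authors' adjusted p at 0.085, 0.26, 0.27 and 0.23. For COX7B2 the authors' deposited table gives a log2 fold change of -0.51. It gives 0.11 for ATP5IF1 and 0.12 for COX5A, where the fit here gave 0.20 for each.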

How the data were processed

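RNA of 12 samples was sequenced. The extraction protocol in the labels names a TruSeq kit while the series' design text names ribosomal RNA depletion and a directional kit, so the library type and the use of strand are not settled, and reads of overlapping genes may not be told apart. Counting with HTSeq 0.9.1 and normalisation and testing with edgeR 3.16.5 are per the submitters' processing notes; neither an aligner nor an annotation is named there. The notes name a mouse build although the gene identifiers are human, so no coordinates are taken from the table. Per the file headers the values deposited per sample are TPM. The deposited table also gives the authors' fold change as a ratio, its log2, and the authors' p-value and adjusted p-value. The members and lists were chosen with earlier results of these data known.

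From the TPM, with 1 row that names no gene left out, genes with a mean of at least 1 over the 12 samples were tested with limma 3.58.1 in R 4.3.3 (lmFit, eBayes with trend) on log2(TPM + 1). Tests were two-sided, p-values were adjusted by Benjamini-Hochberg over the 14520 genes, and calls needed an adjusted p under 0.05. This scale understates the change of low genes. The fit was tested on simulated data. Intervals are 95% confidence intervals of the log2 fold change, computed from the variation among samples. Values were given in full for called members, for the largest change of each complex and for set subunits. In 78 genes, none of them a member, the deposited values disagree by more than 1e-05. Promoter sequences are from RefSeq. Sums, shares and lists are descriptions without a test. The values gave no sign that the replicate numbers pair the samples.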

Additional observations from a re-analysis of the deposited data

Results flagged for a closer look

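In 114 groups of 6 samples (57 members in 2 conditions), 6 held a sample that stood apart from the other 5 by more than 0.625 of the group's range, where chance gives about 1 in 20. Normoxia replicate 3 was that sample in 4 of the 6. Its SDHA level of 55.3 TPM was the lowest of normoxia, with the next at 62.0 TPM, and SDHA was still called higher in hyperoxia without it. It had the highest normoxia level of SDHAF2 at 39.4 TPM, of SDHAF3 at 90.1 TPM and of COX16 at 54.5 TPM, members that were not called. Hyperoxia replicate 3 had the lowest hyperoxia level of SDHAF1, at 31.5 TPM with the next at 36.3 TPM. Hyperoxia replicate 1 had the lowest hyperoxia level of COX6B1, a common complex IV subunit, at 1377 TPM with the next at 1499 TPM.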

How the results depend on the processing

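The 9 calls were refitted under 25 alternatives, and no tested member called here turned its direction in any of them. The number of members called higher (7) was 3 without a filter on low values, 3 with median-of-ratios scaling, 3 with TMM factors, 4 with quantile normalisation, 4 without the variance trend, 3 with an exact rank-sum test, and 3 with normoxia replicates 1 to 3 only; the number called lower (2) was 4 with quantile normalisation and 1 with normoxia replicates 1 to 3 only. Complex II calls (2) were 1 without a filter, with median-of-ratios, TMM or quantile scaling, with the rank-sum test and with normoxia replicates 1 to 3 only, and 4 with sample weights. Complex IV calls (4) were 2 without a filter, without trend, with the rank-sum test and with normoxia replicates 1 to 3 only, where complex V calls (3) were 1. The 35 further assembly and related genes (7) gave 4 without a filter, 4 with the rank-sum test and 2 with normoxia replicates 1 to 3 only. ATP exchange genes (3) gave 1 with median-of-ratios, TMM and normoxia replicates 1 to 3 only. Regulators (4) gave 2 without a filter, 2 without genes whose deposited values disagree and 2 with normoxia replicates 1 to 3 only. Complex I subunits (8) gave 3 with median-of-ratios, 3 with TMM, 5 without trend and 5 with normoxia replicates 1 to 3 only. Over all genes, normoxia replicates 1 to 3 only gave 980 higher and 374 lower, against 1698 and 818; calls lower were 1277 with median-of-ratios, 1258 with TMM and 515 with the rank-sum test. That fit has fewer normoxia samples; the cause of the other shifts was not tested.

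Leaving out 1 sample at a time gave 3 to 8 members higher, 2 to 3 lower, 1 to 3 calls in complex II, 0 to 1 in complex III, 2 to 5 in complex IV, 2 to 4 in complex V, 4 to 8 of the 35 further genes, 3 to 4 mtDNA-encoded partners and 5 to 11 complex I subunits. The count of members called higher was 3 without hyperoxia replicate 5, normoxia replicate 1 or normoxia replicate 4, and 4 without hyperoxia replicates 1, 2 or 3 or normoxia replicate 6. With the replicate number as a block, 13 members were higher, and 2 complex III genes (UQCRB and UQCRC2) and 6 complex V genes were called. The share of all genes called in that fit is not set beside these counts, so they are not read as a result about the members. The deviations of same-numbered samples correlated at -0.117 to 0.017, and 1 of 6 samples correlated best with its own number. These values gave no sign that the numbers pair the samples, which does not establish that the samples were unpaired. The depth is unknown.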
